A study of Mus musculus with 8 samples.

Results

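The genes described here are the replication-dependent histone genes of the mouse, chosen by their symbols (H1f1 to H1f5 and the H2ac, H2bc, H3c and H4c series). A RefSeq table of assembly GRCm38.p6 held 63 of them, among 21883 protein-coding genes in all (the autosomes, X and Y). They comprised 5 genes for the linker histone H1, 17 for H2A, 17 for H2B, 12 for H3 and 12 for H4. One H2B gene carries the symbol H4bc24, and its older symbol, Hist1h2br, placed it with H2B. A further gene with a matching symbol, H2ac14, is annotated as a pseudogene and was left out.

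Replication-dependent histone genes supply the bulk of new histones while DNA is copied in S phase. Most have no introns, and their transcripts end in a conserved stem-loop, bound by SLBP, in place of a poly(A) tail. They lie in dense clusters that gather in the nucleus at histone locus bodies, where NPAT, a substrate of cyclin E and CDK2, activates their transcription. Acetylation of histone H3 marks nucleosomes beside active promoters and enhancers, and HDAC1 is a deacetylase that removes such marks and is often found at the same active promoters.

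Chromatin immunoprecipitation and sequencing (ChIP-seq) had been done on embryonic stem cells of mouse strain 129/Ola, plated on gelatin and differentiated in N2B27, a serum-free medium that favours neural fates. Acetylated histone H3 (H3ac) was precipitated on days 2, 4 and 6, and FLAG-tagged HDAC1 (given as 3 FLAG-HDAC1) on day 2. Each of the 4 precipitations had an input library of its own, and every group was 1 library, so the differences below have no replicate check and no test between days was made. The labels give no other genotype and do not say whether the H3ac cells carried the tag or whether the line was 1 clone.

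The deposited data were 4 lists of peaks, with 17368 (day 2), 12945 (day 4) and 5553 (day 6) H3ac peaks and 5286 HDAC1 peaks. Sequencing depth is unknown from such lists, and a shorter list can hold fewer peaks for reasons outside the cells. Of 6 embryonic stem cell markers, 5, 1 and 1 had an H3ac peak on days 2, 4 and 6, of 6 neural progenitor markers 1, 5 and 3, and of 6 mesendoderm markers none in any list. Among the 5, Nanog and Klf4 ranked only 16386 and 16060 of the 17368 day 2 peaks. The 1 stem cell marker on days 4 and 6 was Sox2. These marker counts were not repeated with lists of equal length. In mixed cells, a larger share of cells with a mark and a stronger mark per cell cannot be told apart.

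The 63 genes fell into 3 clusters. The proximal cluster on chromosome 13 ran from 21715711 to 22043658 (328 kb) with 23 genes, the distal cluster on the same chromosome from 23531044 to 23934913 (404 kb) with 30, and the cluster on chromosome 3 from 96219885 to 96270192 (50.3 kb) with 10. The genes are short, with a median length of 492 bp, and 57 of 63 were under 1 kb. The 6 longer gene models are all for H2B, the longest being H2bc6 (37455 bp) and H2bc22 (14079 bp).

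H3ac was found at most histone genes on each of the 3 days, and at the largest number on day 6, when the whole list was shortest. A gene is called marked here if any part of a peak came within 1 kb of one of its ends. On day 2, 51 of 63 histone genes were marked (81.0%, 95% Wilson interval 69.6 to 88.8%), beside 40.6% of all protein-coding genes. Day 4 had 44 (69.8%, 57.6 to 79.8%), beside 38.0%. Day 6 had 54 (85.7%, 75.0 to 92.3%), beside 23.3%. HDAC1 peaks were at 5 histone genes (7.94%, 3.44 to 17.3%), beside 9.40% of all genes. These intervals cover counting error only, and neighbouring histone genes that share a peak are not independent of each other.

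**Figure D1:**
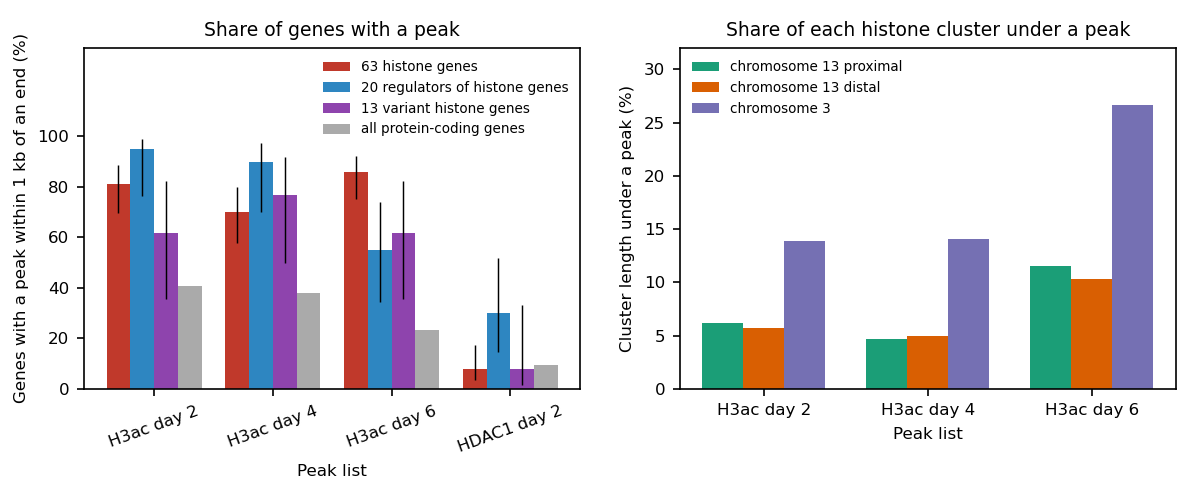
Left, share of genes with a peak within 1 kb of an end in each list (%), for the 63 histone genes, 20 regulators, 13 variant histone genes and all protein-coding genes, with 95% Wilson intervals on the first 3 groups (counting error only). Right, share of the length of each histone cluster under an H3ac peak (%). Histone genes stood at 81.0, 69.8 and 85.7% on days 2, 4 and 6 while all genes stood at 40.6, 38.0 and 23.3%, and the covered share of each cluster was highest on day 6.

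List length affected the day 2 and day 4 counts. When each list was limited to its 5286 highest-scoring peaks, as many as the shortest list holds, 30 histone genes were marked in the day 2 list (47.6%, all genes 22.3%), 22 in that of day 4 (34.9%, all genes 22.8%) and 53 in that of day 6 (84.1%, all genes 22.4%). In lists of equal length the histone genes therefore had their highest share on day 6 as well, while the share of all genes was nearly level. Equal numbers of peaks still covered unequal lengths, 6.07, 6.83 and 11.1 Mb on days 2, 4 and 6. The part of wider day 6 peaks in these shares, and in the equal-length comparisons below, was not tested.

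Marked histone genes were almost never without a peak on day 6. Of the 51 marked on day 2, 50 were marked on day 6 (98%, 89.7 to 99.7%), beside 49.9% of the 8875 genes of the whole genome that had been marked on day 2. On day 4, 41 of the 51 were marked (80.4%, 67.5 to 89.0%), beside 79.0% of all day 2 genes. The day 6 share thus lay far above that of all genes, and the day 4 share lay close to it. With lists of equal length, the day 6 value was 93.3% for histone genes and 60.2% for all genes, and the day 4 value turned to below that of all genes, 66.7% and 72.8%. Of the 12 histone genes unmarked on day 2, 4 were marked on day 6, beside 5.13% of all genes unmarked on day 2.

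The same was seen peak by peak. Of 58 day 2 peaks at histone genes, 53 were overlapped by a day 6 peak (91.4%, 81.4 to 96.3%), compared with 6024 of the other 17300 day 2 peaks (34.8%). Day 4 peaks overlapped 35 of the 58 (60.3%, 47.5 to 71.9%), compared with 50.2% elsewhere. The other day 2 peaks need not lie at genes, so they are not a matched set. All 3 days were marked at 40 histone genes (63.5%), against 4053 of all genes (18.5%).

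Each histone type was represented on each day. All 12 H3 genes, which encode the acetylated core histone itself, were marked on day 2, 9 on day 4 and 12 on day 6. The 5 H1 genes, for the linker histone between nucleosomes, gave 5, 5 and 4. Genes for H2A gave 12, 11 and 14 of 17 and those for H2B 13, 11 and 14 of 17. The 12 H4 genes gave 9, 8 and 10. With 5 to 17 genes a type the intervals overlapped on each day, so no order of the types was resolved in the lists as called. With the higher-scoring 50% of each list, H1 genes gave 4, 5 and 1 of 5 on days 2, 4 and 6. H3 genes then gave 10, 7 and 12 of 12, and H4 genes 8, 3 and 7 of 12. H2A genes gave 11, 6 and 13 of 17 and H2B genes 10, 6 and 13 of 17. Intervals were not computed for these counts.

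By position, the cluster on chromosome 3 had 9, 9 and 10 of its 10 genes marked on days 2, 4 and 6. The distal cluster on chromosome 13 had 26, 22 and 27 of 30. The proximal cluster had 16, 13 and 17 of 23, and the 6 neighbouring genes described below made up most of those it lacked.

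**Figure D2:**
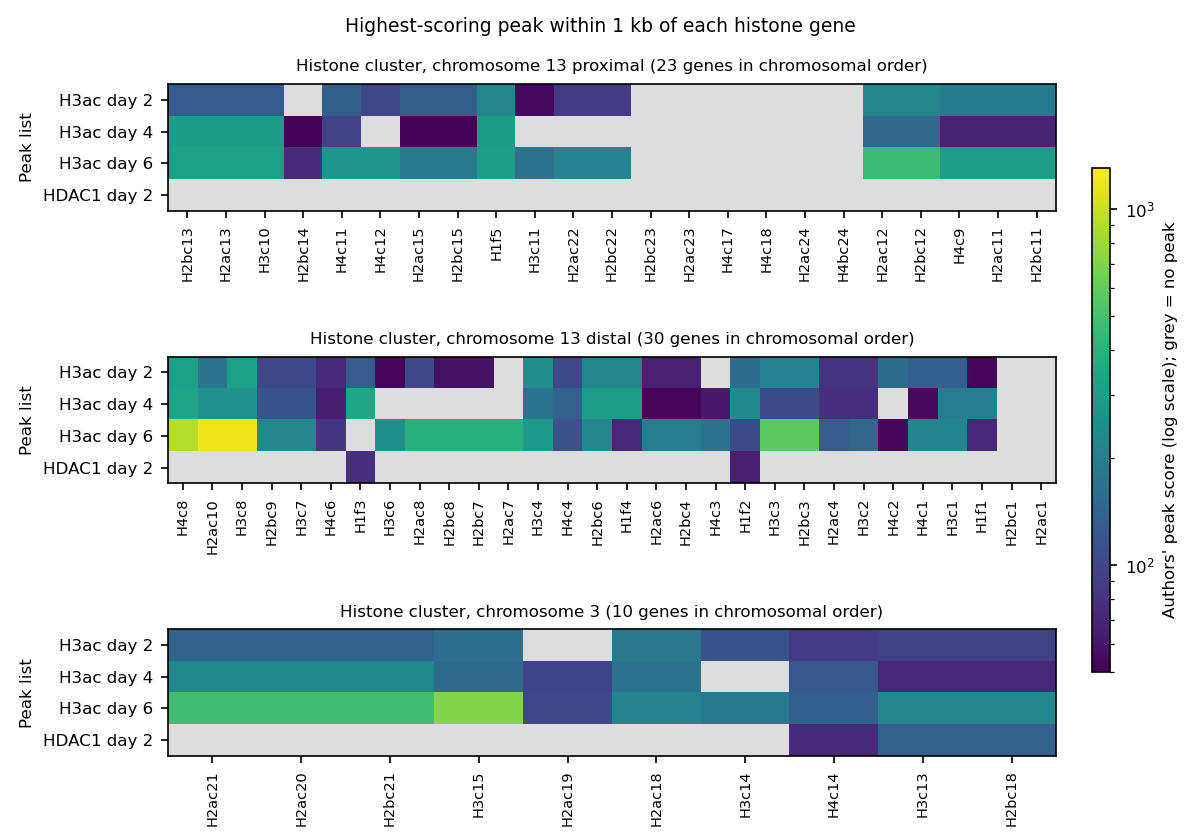
Highest score among the peaks within 1 kb of each of the 63 histone genes (colour, the authors' score on a log scale; grey, no peak), with genes in chromosomal order along the x axis and the 4 peak lists as rows in each cluster. Scores may be ranked within a row only. A block of 6 genes from H2bc23 to H4bc24 and the pair H2bc1 and H2ac1 are grey in all 4 rows, and H2ac10 and H3c8 have the highest day 6 score, 1203.02.

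The authors' peak scores have no stated scale, and were used to rank peaks within a list and not to compare days. Within the day 2 list the median of the histone genes' best scores was 129.91, that of all marked genes 133.88, and 43 of 51 (84.3%) lay above the median peak of the list (80.19), beside 75.2% of all marked genes. Within the day 4 list 27 of 44 (61.4%) lay above the list's median, beside 70.0% of all marked genes. Within the day 6 list 46 of 54 (85.2%) did so, beside 55.4% of all marked genes. On day 6 the histone genes as a set thus stood high in their list, with a median best score of 227.34 against 137.91 for all marked genes. A peak shared by neighbours counts for each of them here. By distinct peak, 39 of 58, 19 of 41 and 36 of 49 lay above the list's median on days 2, 4 and 6. The day 6 median by distinct peak was 185.71, and that of the whole list 123.73. Most H1 genes were exceptions on day 6. H1f4 (71.87), H1f1 (71.97) and H1f2 (104.05) lay below the list's median, H1f3 had no peak and H1f5 (300.42) lay above it.

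The highest-scoring histone peaks of day 6 lay at the proximal edge of the distal cluster, at H4c8, H2ac10 and H3c8. H3c8, an H3 gene, had a best score of 315.28 on day 2 (rank 1091), 261.48 on day 4 (rank 1660) and 1203.02 on day 6 (rank 16), and no HDAC1 peak. H4c8, an H4 gene, had 314.73 (rank 1098), 330.31 (rank 986) and 907.52 (rank 44) on the 3 days, with its nearest HDAC1 peak 23489 bp away. H2ac10, the H2A gene between them, had 172.28 and 261.48 on days 2 and 4, and shared the day 6 peak of H3c8. All 3 genes were thus marked on every day and ranked among the first 50 peaks of the day 6 list.

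In the proximal cluster the top peak of days 2 and 6 was shared by the neighbours H2ac12 and H2bc12. Their scores were 219.99, 146.55 and 468.06 on days 2, 4 and 6. On day 4 the top peak there belonged to H1f5, a linker histone gene, with 218.98, 294.01 and 300.42 on the 3 days. In the cluster on chromosome 3, H2ac18 led on day 2 (185.33, with 169.37 on day 4 and 213.88 on day 6). H2ac21, H2ac20 and H2bc21 shared the top peak of day 4 (140.74, 230.18 and 478.06 on the 3 days), and H3c15 led on day 6 (164.66, 154.24 and 706.41). Each of these leading genes had a peak on all 3 days, so the leaders differed between lists in rank and not in presence.

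Of the 63 genes, 55 were marked on at least 1 day, and the exceptions to marking on all 3 days formed a few patterns. Most of them, 10 genes, were marked on days 2 and 6 but not on day 4. These were H4c12, H3c11, H2ac22 and H2bc22 in the proximal cluster, H3c6, H2ac8, H2bc8, H2bc7 and H4c2 in the distal cluster, and H3c14 on chromosome 3. H4c12 had scores of 100.13 on day 2 and 272.76 on day 6, and its nearest day 4 peak was 2354 bp away. H3c11 had 53.44 and 170.01, and H3c6 had 51.96 and 254.53. H2ac22 and H2bc22, a divergent pair, shared peaks of 88.88 and 211.02. The day 2 scores of these 10 genes ran from 51.96 to 158.64, and 9 of 10 lay below the histone median for that day. Their day 6 scores ran from 53.17 at H4c2 to 388.70 at H2ac8, H2bc8 and H2bc7. The nearest day 4 peaks lay 1276 bp from H3c14, 1898 bp from H2bc7 and 2293 bp from H3c11. With a window of 2.5 kb, these 3 genes and H4c12 were marked on day 4, and with H2ac7 the day 4 count was 49 of 63.

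H2bc14, H4c3 and H2ac19 were marked on days 4 and 6 only. H2bc14, an H2B gene, had 51.60 on day 4 and 75.58 on day 6, both low in their lists. H4c3, an H4 gene, had 62.30 and 171.16, and the same peaks lay within 1 kb of H1f6, a testis linker histone gene. H2ac19 had 96.66 and 101.67, and its nearest day 2 peak lay 1145 bp away, outside the 1 kb window. H2ac7 was marked on day 6 only (388.70), with day 2 and day 4 peaks 1123 and 1190 bp away. The absences at H2ac19 and H2ac7 thus also depend on where the window ends.

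H1f3, a linker histone gene on the plus strand at 23555032 to 23555807, was the 1 histone gene with peaks on days 2 and 4 and none on day 6. Its best scores were 127.38 on day 2 and 341.60 on day 4, where it led the distal cluster at rank 915. The nearest day 6 peak was 3425 bp away. H1f3 was also 1 of the 5 histone genes with an HDAC1 peak. The other 4 H1 genes, H1f1, H1f2, H1f4 and H1f5, were marked on all 3 days.

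The 8 histone genes with no H3ac peak on any day were of 2 kinds. H2bc1 and H2ac1 are a divergent pair that encodes the testis histones TH2B and TH2A. They lie apart at the end of the distal cluster, with the nearest H3ac peak of any day at least 168865 bp from H2bc1 and 169577 bp from H2ac1. The other 6 genes, H2bc23, H2ac23, H4c17, H4c18, H2ac24 and H4bc24, are neighbours that span 21806412 to 21837530 on chromosome 13 (31.1 kb). None of the 4 lists had a peak anywhere in that stretch. The genes stand in mirror order, and the promoter windows of H2bc23 and H4bc24 were identical over all 300 bases, and those of H4c17 and H4c18 at 298 of 300. Windows of the remaining pair, H2ac23 and H2ac24, shared only 200 of 300, and H2ac23 was closer to H2ac7 outside the stretch (250). Among the 58 histone promoter windows the median of the closest identity was 188.5 of 300 bases, and 4 pairs shared 270 or more. The other 2 such pairs, H3c14 with H3c15 (284 bases) and H4c11 with H4c12 (275 bases), lie at genes that were marked on days 2 and 6. How reads that match several copies were counted is not given in the sources used here, and its part in the empty stretch was not tested. Without these 6 genes, 51 of 57 histone genes were marked on day 2 (89.5%), 44 on day 4 (77.2%) and 54 on day 6 (94.7%). The 250 bases before the annotated start are shown for the outer gene at each end because they are letter for letter the same, from RefSeq GRCm38.p6, for H2bc23 at chr13:21810200-21810449 (minus strand) and for H4bc24 at chr13:21833493-21833742 (plus strand), with CCAAT boxes in capitals on either strand (ATTGG is CCAAT read from the other strand):
H2bc23: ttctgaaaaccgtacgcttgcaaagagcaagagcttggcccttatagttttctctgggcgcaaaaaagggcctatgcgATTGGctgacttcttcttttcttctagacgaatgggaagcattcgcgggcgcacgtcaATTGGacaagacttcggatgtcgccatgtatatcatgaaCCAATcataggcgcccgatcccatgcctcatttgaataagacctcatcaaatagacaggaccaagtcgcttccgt
H4bc24: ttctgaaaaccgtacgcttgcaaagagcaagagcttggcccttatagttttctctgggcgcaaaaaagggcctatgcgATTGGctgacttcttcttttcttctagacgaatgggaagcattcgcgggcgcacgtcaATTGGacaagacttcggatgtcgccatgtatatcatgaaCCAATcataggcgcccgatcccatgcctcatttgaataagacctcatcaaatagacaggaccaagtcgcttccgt

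Peaks at histone genes flanked the start sites and seldom covered them on days 2 and 4. RefSeq promoter windows gave a strand and start for 58 of the 63 genes, all but H4c14, H3c7, H2bc21, H3c1 and H2bc4, and for 17491 protein-coding genes. On day 2 a peak covered the start of 2 of 58 histone genes (3.45%, 0.951 to 11.7%), H2bc3 and H4c8, beside 20.3% of all genes. On day 4 it covered 5 (8.62%, 3.74 to 18.6%), beside 19.8%. On day 6 it covered 21 (36.2%, 25.1 to 49.1%), beside 20.1%. The histone starts were therefore below all genes on days 2 and 4 and above them on day 6.

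Many histone starts had a peak nearby that did not cover them. Of 45 histone genes with a day 2 peak within 1 kb of the start, the start itself was covered in 4.44%, compared with 49.2% of all genes with such a peak. On day 4 the values were 12.8% of 39 histone genes and 50.6% of all. On day 6 they were 42.9% of 49 and 85.5%. At each day a histone gene with a peak close by had its start covered less often than other genes with a peak close by.

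**Figure D3:**
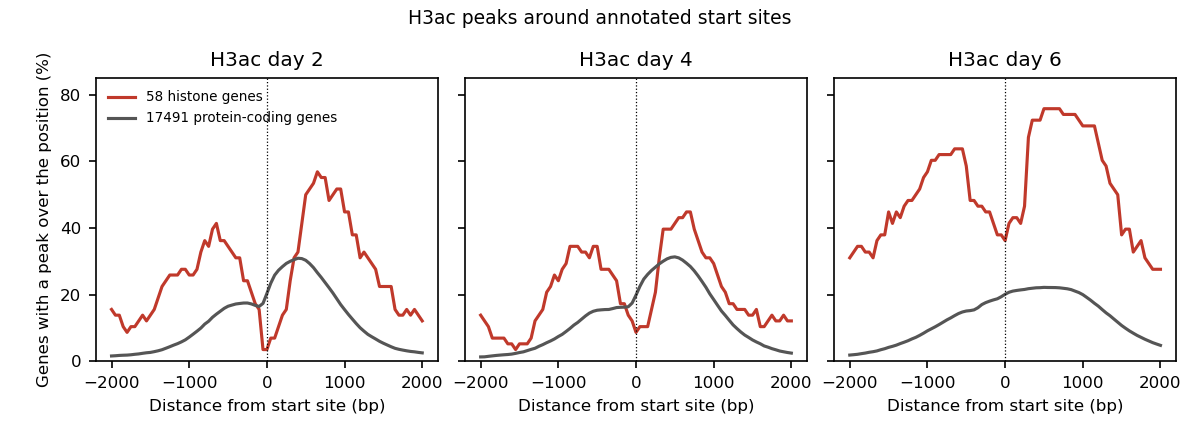
Share of genes with an H3ac peak over each position (%), for 58 histone genes (red) and 17491 protein-coding genes (grey). Positions run every 50 bp from 2 kb before to 2 kb after the annotated start (bp, dotted line at the start). Positive values lie downstream of the start, and most histone genes end before 1 kb (57 of 63 are shorter). Histone genes show a dip at the start between maxima on each side, down to 3.45% on day 2, 8.62% on day 4 and 36.2% on day 6, where all genes stand at 20.3, 19.8 and 20.1%.

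Along the profile, day 2 coverage at histone genes was highest 650 bp before the start (41.4%) and 650 bp after it (56.9%), where the gene of median length has already ended. Over all genes the downstream maximum was 30.9%, at 400 bp. Day 4 maxima at histone genes were 34.5% at 850 bp before and 44.8% at 650 bp after. On day 6 they were 63.8% at 650 bp before and 75.9% at 500 bp after, compared with 22.1% of all genes at 500 bp after. Peaks covered a whole histone gene from end to end in 1 case on day 2 (H4c14), 4 on day 4 (H1f3, H1f1, H2ac21 and H4c14) and 15 on day 6, while any part of the gene was touched in 34, 32 and 48.

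Part of this dip lay at the divergent gene pairs, where an H2A and an H2B gene are transcribed away from each other. Their genes are among the 58 above, so the pairs restate the dip and are no separate check of it. Divergent pairs of other genes were not examined. There were 10 such pairs, with starts 164 to 281 bp apart. Peaks between the 2 starts were found in 0 pairs on day 2, 0 on day 4 and 1 on day 6 (H2bc13 and H2ac13), whereas 5, 4 and 7 pairs had at least 1 peak within 1 kb of both genes. These pairs share their upstream region, so each counts as 1 place.

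The depth of the dip depended on short gaps between peaks. When peaks of 1 list less than 1 kb apart were joined, 24.1, 22.4 and 60.3% of histone starts were covered on days 2, 4 and 6, and 25.8, 24.3 and 20.6% of the starts of all genes. After joining, the histone starts were thus close to all genes on days 2 and 4, and some of the uncovered starts lay in gaps under 1 kb between called peaks. The source of the gaps was not tested.

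Promoter windows were searched for elements known from H1, H2B and H4 genes and for 2 general ones. Motifs were searched on both strands of the windows from 250 bases before to 50 after the start, and matches of different motifs may overlap. The octamer ATTTGCAT, the site of OCT1 in H2B promoters, was in 12 of 58 histone windows (20.7%) and 1.71% of all 17491, namely 6 of 17 H2A and 6 of 15 H2B windows. AAACACA, the H1 box, was in 8 (13.8%; 6.13% of all), namely H1f2, H1f3, H1f4 and H1f5 of the 5 H1 genes and H2ac1, H2ac4, H2bc1 and H2bc14. GGTCCG, the core of H4 site II that HINFP binds, was in 12 (20.7%; 10.6% of all), 10 of them among the 11 H4 windows. CCAAT was in 50 (86.2%; 39.0% of all) and TATAAA in 34 (58.6%; 13.3% of all). CCAAT was found in every H1, H2A, H2B and H3 window but in only 3 of 11 H4 windows. A match is a description of the letters and not a bound site.

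Of these promoters, 3 that hold such an element are shown beside what was measured, with all sequences from RefSeq GRCm38.p6, plus strand, ending 1 base before the annotated start except where stated. H1f3 (chr13:23554782-23555031) has the HDAC1 peak, with the H1 box AAACACA 122 bp before the start, a CCAAT box at 51 bp and TATAAA at 26 bp in capitals, and TTTATA, the same TATA box read from the other strand, at 153 and 145 bp. H4c8 (chr13:23530794-23531053, which includes the first 10 bases of the gene) has GGTCCG in capitals from 5 bp before the start. Alone among the 58 histone genes with a promoter window, H4c8 had its start covered on all 3 days. H2bc12 (chr13:22035571-22035820) led the proximal cluster on days 2 and 6, by a peak shared with H2ac12, and its start was uncovered. It has the octamer ATTTGCAT in capitals from 30 bp before the start. Its CCAAT boxes are also in capitals, as CCAAT from 132 bp and, read from the other strand, as ATTGG from 160 and 96 bp:
H1f3: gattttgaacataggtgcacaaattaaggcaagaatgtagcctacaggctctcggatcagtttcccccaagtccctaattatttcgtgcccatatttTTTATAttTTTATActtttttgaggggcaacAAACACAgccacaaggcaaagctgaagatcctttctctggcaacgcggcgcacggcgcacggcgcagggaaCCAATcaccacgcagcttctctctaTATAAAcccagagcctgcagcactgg
H4c8: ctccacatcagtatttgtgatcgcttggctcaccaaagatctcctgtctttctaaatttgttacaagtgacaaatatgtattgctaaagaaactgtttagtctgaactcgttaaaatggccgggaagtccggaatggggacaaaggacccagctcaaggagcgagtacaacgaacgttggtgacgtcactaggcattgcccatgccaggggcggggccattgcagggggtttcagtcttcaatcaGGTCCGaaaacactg
H2bc12: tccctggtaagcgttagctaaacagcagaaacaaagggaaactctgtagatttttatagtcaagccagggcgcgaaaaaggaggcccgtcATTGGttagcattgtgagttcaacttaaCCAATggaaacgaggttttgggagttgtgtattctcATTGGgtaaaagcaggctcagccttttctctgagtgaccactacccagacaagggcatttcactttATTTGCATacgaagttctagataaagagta

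H3ac peaks at histone genes were wider on day 6 than on earlier days, but so were all peaks of that list, and no domain spanned a cluster. The 58 distinct peaks of day 2 had widths from 267 to 1529 bp with a median of 676 bp (591 bp for all other peaks). The 41 of day 4 ran from 469 to 1763 bp with a median of 749 bp (others 792 bp). The 49 of day 6 ran from 687 to 4511 bp with a median of 1366 bp (others 1902 bp), and 11 of the 49 were wider than the median of the others. As called, day 6 peaks at histone genes were therefore narrower than day 6 peaks elsewhere.

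**Figure D4:**
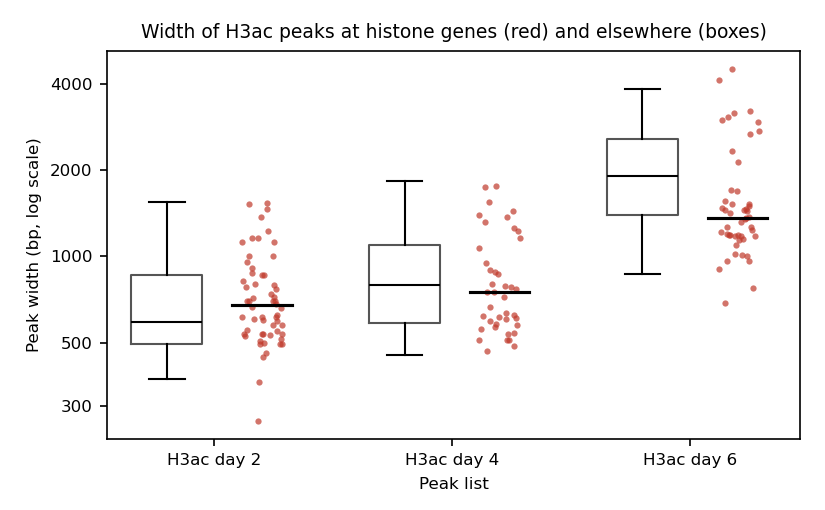
Width of H3ac peaks (bp, log scale) at histone genes (red points, 1 per distinct peak, with a bar at the median) and at all other places (boxes from the lower to the upper quartile with the median, whiskers from the 5th to the 95th percentile). Histone peaks have medians of 676, 749 and 1366 bp on days 2, 4 and 6, above the other peaks on day 2 and below them on days 4 and 6.

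The order of widths turned when peaks less than 1 kb apart were joined. The day 6 median was then 2398 bp at histone genes and 2088 bp elsewhere, and 34 joined peaks remained of the 49. Joining also gave 1118 bp on day 2 (others 658 bp) and 1255 bp on day 4 (others 908.5 bp). On day 4 the order turned with equal numbers of peaks as well (1242 bp, others 1166 bp). Peaks less than 1 kb from another peak of their list made up 34 of 58 at histone genes on day 2 (58.6%, others 38.0%), 22 of 41 on day 4 (53.7%, others 34.1%) and 28 of 49 on day 6 (57.1%, others 15.4%). The remaining histone peaks stood alone. Joining took the day 6 peaks from 17 to 10 in the proximal cluster, from 24 to 17 in the distal cluster and from 8 to 7 on chromosome 3.

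Distinct peaks at histone genes numbered 30 on day 2, 20 on day 4 and 24 on day 6 in the distal cluster of chromosome 13. In the proximal cluster they numbered 18, 10 and 17, and on chromosome 3 they numbered 10, 11 and 8. Peaks within 1 kb of several histone genes made up 23 of 58, 19 of 41 and 27 of 49, and the most genes at 1 peak was 3 on days 2 and 4 and 4 on day 6. The 4 genes were H2ac8, H2bc8, H2bc7 and H2ac7, at a day 6 peak of 2331 bp. More than 50% of day 6 peaks were thus shared between neighbours. List length affected these counts too: over all 3 clusters they were 58, 41 and 49 on days 2, 4 and 6 as called, and 22, 16 and 48 with equal numbers of peaks. The order of days 2 and 6 thus turned, in the distal cluster from 30 and 24 to 12 and 23.

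As called, merging of day 2 peaks into day 6 peaks was about as common at histone genes as elsewhere. Of the 49 day 6 peaks, 11 overlapped 2 or more day 2 peaks (22.4%, 13 to 35.9%), beside 25.1% of the 5503 day 6 peaks away from histone genes. Another 29 overlapped 1 day 2 peak and 9 overlapped none. Among the 11, 4 spanned 3 day 2 peaks. With equal numbers of peaks the share was 4.17% at histone genes and 6.15% elsewhere. When peaks less than 1 kb apart were joined first in both lists, it was 20.6% at histone genes (7 of 34) and 1.54% elsewhere, so the comparison rests on how close peaks are treated.

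The widest day 6 peaks show what merging there was. A peak of 4511 bp (23529530 to 23534040, score 907.52) ran across H4c8 to H2ac10 over 3 day 2 peaks. The next, of 3172 bp (23534117 to 23537288, score 1203.02), began just past its end, covered H3c8 and ran over 2 day 2 peaks. Joining peaks less than 1 kb apart put both in 1 peak. On chromosome 3 a peak of 4102 bp (96218462 to 96222563, score 478.06) spanned H2ac21 and H2ac20 and reached into H2bc21, also over 3 day 2 peaks. A peak of 3220 bp at H4c14 (score 132.14) and one of 2734 bp at H1f5 (score 300.42) also ran over 3 day 2 peaks. Each of these reached at most 3 histone genes.

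Cluster length under H3ac peaks was highest on day 6. The proximal cluster was covered over 6.15% of its length on day 2, 4.70% on day 4 and 11.5% on day 6. The distal cluster was covered over 5.72, 4.97 and 10.3%, and the cluster on chromosome 3 over 13.9, 14.1 and 26.6%. Over all 3, peaks covered 50.2, 42.6 and 93.0 kb of 782 kb, while the whole lists covered 12.8, 11.9 and 11.6 Mb. The total covered over the genome was thus nearly level, and no cluster was under peaks for more than 26.6% of its length on any day. With equal numbers of peaks the covered share was 2.91% on day 2, 2.48% on day 4 and 11.7% on day 6, but the lists then covered 6.07, 6.83 and 11.1 Mb, so the day 6 total was higher over the whole genome as well.

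HDAC1 peaks were at 5 of 63 histone genes (7.94%, 3.44 to 17.3%), close to the 9.40% of all genes. They lay at H1 genes and on chromosome 3. There were 5 peaks at 5 genes: 2 in the distal cluster of chromosome 13, none in the proximal cluster and 3 on chromosome 3. At H1f3 an HDAC1 peak of 298 bp (23554967 to 23555264, score 78.28) covered the start site. At H1f2, another linker histone gene, the peak at 23739342 to 23739697 had a score of 66.53. H4c14, an H4 gene, had peaks at 96262134 to 96262596 (73.95) and at 96263033 to 96263358 (52.63). H3c13 and H2bc18 shared the highest-scoring, of 714 bp at 96269570 to 96270283 (136.26, rank 432). The median score of the HDAC1 list was 65.37, and 4 of the 5 peaks lay above it.

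All 5 genes with an HDAC1 peak also had a day 2 H3ac peak, beside 80.7% of the 2057 genes with HDAC1 over the genome and 81.0% of all histone genes. Of the 5 HDAC1 peaks, 4 overlapped a day 2 H3ac peak (80%, 37.6 to 96.4%), compared with 27.7% of the other 5280, which need not lie at genes. The exception, the upstream peak at H4c14, lay 53 bp from a day 2 H3ac peak and overlapped peaks of days 4 and 6. At H1f3 the HDAC1 peak overlapped H3ac peaks of days 2 and 4, and the nearest day 6 peak was 3360 bp from it. The day 2 overlap at H1f3, counted among the 4, was at the edge only. The HDAC1 peak ran from 23554967 to 23555264, a day 2 H3ac peak ended at 23554968 and the next began at 23555268. The HDAC1 peak thus lay almost wholly between these H3ac peaks. Among genes with no other gene end within 2 kb, 3 of 12 histone genes had an HDAC1 peak (25%) and 6.36% of all such genes, which turned the order seen over all 63 genes. H2A genes had 0 of 17, for which the interval reaches 18.4%.

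Genes whose products drive histone transcription, process the transcripts or carry the proteins were set beside the histone genes. Of 20 such regulators, H3ac marked 19, 18 and 11 on days 2, 4 and 6, next to 40.6, 38.0 and 23.3% of all genes, so regulators and all genes alike had fewer marked genes on day 6 than on day 2. In lists of equal length the regulators gave 12, 14 and 11, beside 22.3, 22.8 and 22.4% of all genes. An HDAC1 peak was found at 6 (30%, 14.5 to 51.9%), beside 9.40% of all genes. Npat, the coactivator of histone gene transcription, had best scores of 347.61 on day 2 and 598.19 on day 4 and no peak on day 6. Slbp, which encodes the stem-loop binding protein, had 626.98, 473.94 and 164.81, and an HDAC1 peak of 77.71. Casp8ap2, a histone locus body component, had 240.20, 240.59 and 241.53. The kinase gene Cdk2, the cyclin gene Ccne1, Lsm11 of the U7 particle that cuts histone transcripts, the octamer factor gene Pou2f1, the Sm protein gene Snrpd3 and the histone chaperone genes Asf1a, Chaf1a and Nasp also had a peak on all 3 days. Hinfp, which encodes the H4 promoter factor, Lsm10, Zfp473, E2f1, Cpsf3, Asf1b and Chaf1b had peaks on days 2 and 4 and none on day 6. Eri1, an exonuclease gene, had one on day 2 only and Ccne2 one on day 6 only (87.85). HDAC1 peaks were at Slbp, Lsm11, Zfp473, E2f1, Ccne1 and Pou2f1.

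Replacement and variant histone genes lie outside these clusters except H1f6, and most can be made outside S phase. Of 13, H3ac marked 8, 10 and 8 on days 2, 4 and 6 (61.5, 76.9 and 61.5%), beside 40.6, 38.0 and 23.3% of all genes. The day 2 interval, 35.5 to 82.3%, includes the share of all genes. HDAC1 had a peak at 1 of 13 (7.69%), beside 9.40% of all genes. H3f3a, a gene for the replacement histone H3.3, had scores of 500.06, 598.13 and 362.66, and H3f3b, the other H3.3 gene, had no peak in any list. H2ax, whose product is phosphorylated at DNA breaks, had 541.35, 494.80 and 246.64 and was the 1 variant gene with an HDAC1 peak (87.28). H2az1, H2az2 and the centromeric Cenpa were also marked on all 3 days. H2aj was marked on days 2 and 6, Macroh2a1 and H1f6 on days 4 and 6, Macroh2a2 and H1f0 on days 2 and 4, H1f10 on day 4, and the testis gene H1f7 on none.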

How the data were processed

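Reads of the 4 precipitated libraries were aligned to mouse build mm10, with Bowtie 0.12.8 named in the submitters' processing notes. Deposited peak names begin with MACS, a peak caller, but its version and threshold, the use of the 4 input libraries and the handling of reads with several matches are items not given in the sources used here. In the deposited files, each list gave chromosome, start, end, name and a score per peak, and the score is the authors' value on an unstated scale, used only to rank or filter within a list. Input libraries were not analysed here, and read depth per library is unknown.

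Genes were taken from RefSeq GRCm38.p6 (the coordinates of mm10, 1-based here), without exons. An overlap of 1 bp or more counted as shared. Genes within 500 kb of each other formed a cluster. Shares have 95% Wilson intervals, and no p-value was computed. Python 3.11.15, pandas 2.3.3, numpy 2.4.6, scipy 1.17.1 and matplotlib 3.10.9 were used, and the overlap procedure was tested on simulated data.

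The histone genes, the 20 regulators, the 13 variants and the 18 markers were chosen with earlier results of these data known. Genes were named where they lay under the highest-scoring peak of a cluster and list or the 3 widest day 6 peaks, had an HDAC1 peak, were marked on fewer than 3 days (values for up to 5 a pattern) or belonged to the regulator and variant lists. Other genes with values (the day 4 distances and the identical promoters) were chosen after their values were seen. Types were read from symbols, except H4bc24, typed from its older symbol. Alternatives were distances of 0.5 and 2.5 kb, genes with no other gene end within 2 kb, equal numbers of peaks, the higher-scoring 50% of each list, a cluster gap of 100 kb, a 50% overlap, and peaks less than 1 kb apart joined.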

Additional observations from a re-analysis of the deposited data

How the results depend on the processing

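Of the values that answer a comparison, 56 recomputed ones stayed within their error or within 1.5 times and 23 moved, and none was a test. With equal numbers of peaks, the share of histone genes marked was 47.6% on day 2 and 34.9% on day 4, with 22 and 16 distinct peaks, a day 4 median width of 1242 bp, 66.7% of day 2 genes kept on day 4, 4.17% of day 6 peaks over several day 2 peaks, and 2.91% and 2.48% of cluster length covered on days 2 and 4. With the higher-scoring 50% of each list, day 4 had 42.9% of genes marked, 19 distinct peaks, a median width of 1161 bp and 2.99% of cluster length covered, and 60.5% of day 2 genes were kept on day 4 and 88.4% on day 6 (all genes 71.4% and 33.8%). With peaks less than 1 kb apart joined, median widths were 1118, 1255 and 2398 bp for H3ac on days 2, 4 and 6 and 535 bp for HDAC1, and covered starts were 24.1, 22.4 and 60.3%. Among genes with no other gene end within 2 kb, 25% had an HDAC1 peak. The share of histone genes with an H3ac peak stayed above that of all genes on each day under every alternative run. In lists of equal length the day 4 share of day 2 genes kept was below that of all genes (72.8%). The start-site, retention, coverage and regulator alternatives, and those that used start sites or left out the 6 repeated genes, were added after the data were seen. No paired analysis was possible because each group is 1 library and no test was made. Depth limits every absence: a gene without a peak may carry a mark too weak to be called.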

Other observations

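The gap between both ends of the proximal histone cluster holds 31 tRNA genes, from 21848022 to 22030173 on chromosome 13. Inside the cluster, 14 day 2, 12 day 4 and 10 day 6 H3ac peaks lay more than 1 kb from any histone gene, and 11, 11 and 10 of these were within 1 kb of a tRNA gene. Of the 31 tRNA genes, 14, 13 and 18 had such a peak on days 2, 4 and 6, while 38.7, 43.6 and 32.4% of all 408 tRNA genes did. HDAC1 had a peak at none of the 31 and at 8 of all 408 (1.96%).

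The clusters also hold 10 other protein-coding genes, 7 in the distal and 3 in the proximal cluster. H3ac peaks were within 1 kb of 2 of them on day 2 (the zinc finger gene Zfp184 and Pom121l2), 3 on day 4 (Zfp184, H1f6 and Hfe, the hemochromatosis gene) and 1 on day 6 (H1f6, whose peak is that of H4c3). Prss16, Trim38 and the transporter genes Slc17a1, Slc17a2, Slc17a3 and Slc17a4 had none, and HDAC1 had no peak at the 10.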
